A study of Mus musculus with 62 samples.

Results

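The liver UDP glucuronosyltransferases were followed through 20 liver RNA sequencing libraries of female C57BL/6 mice given the MARBLES mixture of polychlorinated biphenyls (PCBs) by mouth. The 9 members, Ugt1a1, Ugt1a6a, Ugt1a9, Ugt2a3, Ugt2b1, Ugt2b5, Ugt2b34, Ugt2b35 and Ugt2b36, were taken as a named list by mouse Entrez identifier, with no threshold on their values. They are 9 of the 16206 genes listed in the liver table, and all 9 passed the filter on low counts that left 12968 genes to test. The liver groups were vehicle (4 libraries), 0.1 mg/kg (4), 1 mg/kg (6) and 6 mg/kg (6). The prefrontal cortex and the striatum of the same study each had 4, 5, 6 and 6 libraries. All groups were female and of 1 inbred strain, and the labels name no genetic change, no age and no time between dosing and collection. Nothing in the labels says whether RNA was pooled, and each library carries an animal number.

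UDP glucuronosyltransferases sit in the membrane of the endoplasmic reticulum and join glucuronic acid from UDP-glucuronic acid to small lipophilic molecules, which then leave the cell through export pumps into bile or blood. In the liver they act on bilirubin, steroids, thyroid hormone, drugs and hydroxylated metabolites of PCBs. Their genes are known targets of the xenobiotic receptors CAR, PXR, AhR and PPARα, and thyroid hormone is cleared in part through them.

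The 3 Ugt1a members and the 6 Ugt2 members differ in what a read can tell about them. Coordinates here are those of mouse build GRCm38 (mm10). The Ugt1a locus lies on chromosome 1, where Ugt1a1 spans chr1:88211959-88220002, Ugt1a6a chr1:88134809-88220002 and Ugt1a9 chr1:88070779-88220002, all on the plus strand. The 3 genes differ in their first part and end in the same 4 exons of 132, 88, 220 and 871 bases. The part outside these 4 exons is 913 of 2224 transcript bases for Ugt1a1, 986 of 2297 for Ugt1a6a and 879 of 2190 for Ugt1a9. Of the 986 bases of Ugt1a6a, the 859 of its exon 2 also belong to another gene of the locus, Ugt1a7c. The 127 bases of its exon 1 lie in no other gene, but a first exon with the same letters at chr1:88103252-88103378 belongs to Ugt1a7c and Ugt1a6b. Reads inside the shared 1311 bases cannot be told apart, and how the authors counted them is not given in the sources used here. The sequences across the point where the first part meets the first of the 4 exons show this directly. The 60 lower-case bases lie outside the 4 exons, those of Ugt1a6a being also in Ugt1a7c, and the 60 capitals lie inside them:
Ugt1a1: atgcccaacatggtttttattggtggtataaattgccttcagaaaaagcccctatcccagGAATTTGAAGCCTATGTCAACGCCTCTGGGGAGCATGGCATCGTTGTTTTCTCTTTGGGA
Ugt1a6a: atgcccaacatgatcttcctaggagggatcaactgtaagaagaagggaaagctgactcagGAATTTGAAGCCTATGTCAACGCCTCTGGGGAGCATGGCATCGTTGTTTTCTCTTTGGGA
Ugt1a9: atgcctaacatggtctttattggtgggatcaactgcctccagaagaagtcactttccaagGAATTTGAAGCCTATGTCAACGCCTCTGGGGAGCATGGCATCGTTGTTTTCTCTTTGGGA
Every one of the 60 capital bases is the same in the 3 genes, while 49 of the 60 lower-case bases are the same in Ugt1a1 and Ugt1a9, 39 in Ugt1a6a and Ugt1a9 and 36 in Ugt1a1 and Ugt1a6a.

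The Ugt2 members lie on chromosome 5 as separate genes. Ugt2a3 spans chr5:87324972-87337195, Ugt2b1 chr5:86916639-86926503, Ugt2b5 chr5:87124946-87140340, Ugt2b34 chr5:86889770-86906937 and Ugt2b36 chr5:87065927-87092555, all on the minus strand, and Ugt2b35 spans chr5:87000860-87013274 on the plus strand. Of all 50-base stretches of the longest coding transcript, 41.7% of those of Ugt2b5 also occur in another gene, and 34.8% of all its stretches occur in Ugt2b38, so the level of Ugt2b5 is uncertain to that extent. For the other 5 Ugt2 members the share is between 0% (Ugt2b1) and 4.55% (Ugt2a3). For comparison it is 58.2% for Ugt1a1, 62.0% for Ugt1a9 and 100% for Ugt1a6a, whose whole transcript sequence, with that copy of exon 1, recurs in a transcript of Ugt1a7c, a gene without a row in the liver table.

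Windows of 250 bases before the annotated start are shown for 2 members, taken from RefSeq on GRCm38.p6, where all 9 members matched. Ugt2b5 and Ugt2b36 were chosen because they are the most abundant per length and their windows share the longest stretch. Capitals mark AGGTCA, a half-site of the nuclear receptor motif, searched on both strands.
Ugt2b5 (chr5:87140341-87140590, minus strand): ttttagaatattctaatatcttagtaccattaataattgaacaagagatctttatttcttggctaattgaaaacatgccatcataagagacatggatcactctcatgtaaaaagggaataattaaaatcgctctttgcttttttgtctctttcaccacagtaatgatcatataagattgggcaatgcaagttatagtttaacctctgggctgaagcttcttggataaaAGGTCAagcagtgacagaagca
Ugt2b36 (chr5:87092556-87092805, minus strand): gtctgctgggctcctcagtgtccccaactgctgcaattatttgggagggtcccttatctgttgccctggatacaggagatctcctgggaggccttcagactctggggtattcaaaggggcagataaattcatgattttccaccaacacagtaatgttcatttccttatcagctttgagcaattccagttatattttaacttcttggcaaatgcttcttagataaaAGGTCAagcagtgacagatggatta
AGGTCA occurred in the windows of Ugt1a9, Ugt2b5, Ugt2b35 and Ugt2b36, against 14.0% of 32851 listed promoters. The AhR core GCGTG (28.2% of promoters) and the antioxidant response element TGACNNNGC (10.2%) occurred in none of the 9 windows, which says only that these letters are not in these 250 bases. The windows of Ugt2b5 and Ugt2b36 share a stretch of 24 bases, gataaaAGGTCAagcagtgacaga, ending 5 bases before the start of Ugt2b5 and 8 before that of Ugt2b36. The next longest identical stretch among the 36 pairs of windows was 14 bases, between Ugt2b35 and Ugt2b36.

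Levels are given as CPM, counts per 10⁶ counts of the library after TMM scaling. Total counts were 7.38 to 10.2 M (10⁶ counts) per liver library. All 10 hepatocyte markers were listed, with a summed level of 81160 to 179342 CPM. Kupffer cell markers summed to 125 to 355 CPM, stellate cell markers to 401 to 830 CPM, cholangiocyte markers to 48.1 to 131 CPM, neuron markers to 6.44 to 67.3 CPM and glial markers to 2.30 to 64.5 CPM. Blood cell markers, of which 6 of 8 were listed (not Hba-a2 and Hbb-bs), summed to 53.5 to 3076 CPM in vehicle and 81.7 to 239 CPM at 6 mg/kg. The haemoglobin genes Hbb-bt and Hba-a1 stood at log2 fold changes of −3.90 (SE 1.26, edgeR adjusted p 0.0868) and −2.77 (SE 1.23, edgeR adjusted p 0.176) at 6 mg/kg, and their part in the members' values was not tested. Of 7 intestinal markers Cdx1, Cdx2, Sis and Olfm4 had no row or no count, and the other 3 summed to 55.5 to 122 CPM in vehicle and 87.8 to 181 CPM at 6 mg/kg. Among these, Lgals4 was at 6.60 ± 3.45 CPM in vehicle (SD, n = 4) and 26.8 ± 24.5 at 6 mg/kg (SD, n = 6; edgeR adjusted p 0.126), and Fabp2, which hepatocytes also express, at 83.5 ± 29.3 and 111 ± 19.2 CPM. Their part in the members' values was not tested. In bulk tissue, fewer cells of a type and less RNA per cell cannot be told apart.

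Per kilobase of the longest coding transcript, the members of the Ugt2 group in vehicle livers stood in the following order. Ugt2b5 was at 249.8 ± 29.8 CPM per kilobase of transcript (SD, n = 4) and Ugt2b36 at 222.4 ± 13.2 (SD, n = 4), and their library values overlapped. Ugt2a3 was at 85.4 ± 7.47, Ugt2b34 at 80.6 ± 6.98 and Ugt2b1 at 60.2 ± 4.12 (SD, n = 4 each), and Ugt2a3 and Ugt2b34 overlapped while Ugt2b1 lay below both in every library. Ugt2b35 was the lowest at 20.3 ± 3.54 CPM per kilobase (SD, n = 4). The Ugt1a members were not placed in this order because of their shared exons. The transcript taken for Ugt2b34 has 4312 bases in 5 exons, the last of 3196 bases, where the other Ugt2 members have 6 exons. The place of Ugt2b34 depends on that choice, and a shorter transcript would raise its value.

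At 6 mg/kg none of the 9 members passed edgeR's quasi-likelihood test against vehicle at an adjusted p of 0.05. Over all 12968 genes 2.8% passed, or 363 genes, a count that ran from 3 to 1302 with 1 library left out. At an unadjusted p under 0.05, 2 members were lower (Ugt2a3 and Ugt2b1) and none higher, against 11.1% of all genes lower and 13.1% higher. The median log2 fold change of the members was −0.23, with 7 of 9 below 0. That of all genes tested was 0.02, with 6241 of 12968 below 0. At 1 mg/kg and at 0.1 mg/kg no member had even an unadjusted p under 0.05 by edgeR and none passed by DESeq2, where 8.44% and 4.1% of all genes did, and 0% and 0.0154% passed the adjusted threshold. At 1 mg/kg, leaving out animal 41 put Ugt2b1 (log2 fold change −0.65, unadjusted p 0.00435) and Ugt1a6a (−1.10, unadjusted p 0.0176) under 0.05, at edgeR adjusted p-values of 0.165 and 0.224.

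Ugt2a3, an enzyme that acts on bile acids, was the member with the smallest p at 6 mg/kg against vehicle. Its 4 vehicle libraries held 196, 166, 193 and 168 CPM, and the 6 mg/kg libraries ran from 89.6 over a median of 129 to 160 CPM. Every 6 mg/kg library lay below every vehicle library, which was true of 3.5% of all genes in that direction and of no other member. The log2 fold change was −0.53 (SE 0.17, 95% interval −0.87 to −0.19), at an edgeR adjusted p of 0.0844. At 1 mg/kg the libraries ran from 155 over 182 to 221 CPM and at 0.1 mg/kg from 149 over 179 to 206 CPM, both overlapping vehicle, with log2 fold changes of 0.02 (SE 0.17) and −0.02 (SE 0.19). By DESeq2's Wald test Ugt2a3 passed with an adjusted p of 0.0325, and without animal 55 or animal 56 of the 6 mg/kg group it passed by edgeR with an adjusted p of 0.0373 or 0.043.

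Ugt2b1 held 163, 164, 151 and 142 CPM in vehicle and from 61.8 over 101 to 150 CPM at 6 mg/kg. One 6 mg/kg library, that of animal 55, lay inside the vehicle range, and the other 5 lay below it. The log2 fold change was −0.60 (SE 0.23, 95% interval −1.05 to −0.16), with an edgeR adjusted p of 0.121. It was −0.44 (SE 0.23) at 1 mg/kg and −0.12 (SE 0.25) at 0.1 mg/kg. As a slope over dose rank, Ugt2b1 changed by −0.21 on the log2 scale per step (SE 0.069, edgeR adjusted p 0.0693) and Ugt2a3 by −0.16 (SE 0.063, edgeR adjusted p 0.113). No member passed in this fit, where 4.81% of all genes did, or 624 genes, a count that ran from 79 to 1317 with 1 library left out. At an unadjusted p under 0.05 these 2 members had a falling slope, against 11.4% of all genes. By DESeq2 Ugt2b1 passed in the slope, where 1228 of all genes did. Without animal 55 Ugt2b1 passed at 6 mg/kg (log2 fold change −0.75, edgeR adjusted p 0.0437).

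**Figure D1:**
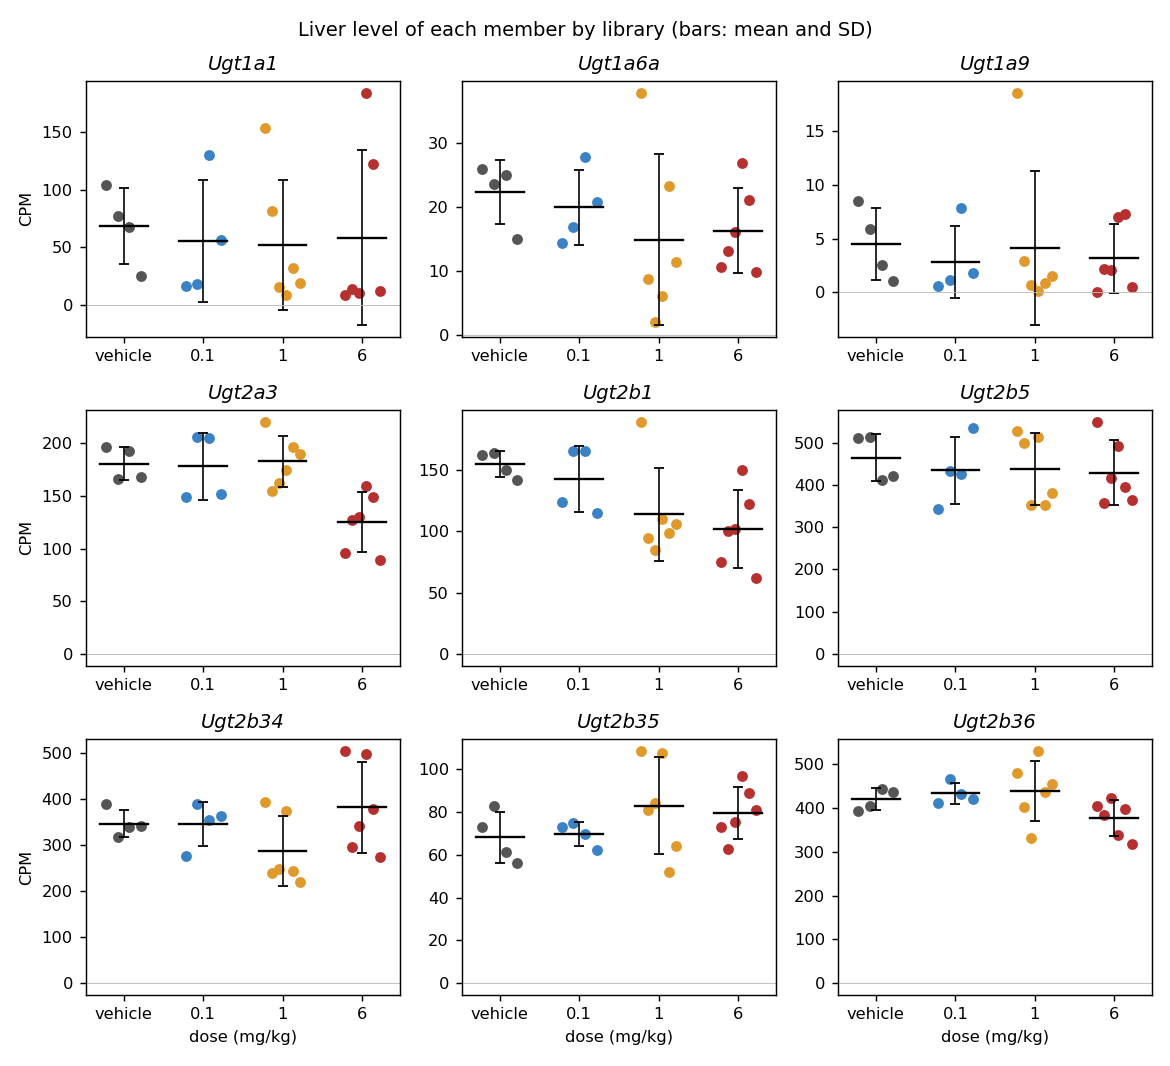
CPM of each of the 9 members in every liver library (points) by dose in mg/kg, with the mean (horizontal bar) and SD (error bar) of each group. Ugt2a3 at 6 mg/kg lies below vehicle in all 6 libraries and Ugt2b1 in 5 of 6. Ugt1a1 and Ugt1a9 spread widely within every dose group, Ugt1a1 between 8.98 and 184 CPM at 6 mg/kg.

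Both genes moved with a property of the libraries that also differed between the groups. The GC index of a library is the Spearman correlation, across genes, between its deviation from the mean log2 CPM and the GC content of the transcript. It ran from −0.28 to −0.16 in vehicle, from −0.15 to −0.14 at 0.1 mg/kg, from −0.26 to 0.32 at 1 mg/kg and from −0.02 to 0.24 at 6 mg/kg, so that vehicle and 6 mg/kg did not overlap. Over the 20 libraries log2 CPM of Ugt2b1 correlated with the GC index at Pearson r = −0.81 and Spearman rho = −0.81 (permutation p 1e-05, the smallest that 100000 permutations can give, and 5e-05). After Benjamini-Hochberg adjustment over 36 relations these p-values were 0.00012 and 0.0006. Without the 2 libraries farthest from the median r was −0.82, and within the 1 mg/kg and 6 mg/kg groups it was −0.81 and −0.82 (n = 6 each). For Ugt2a3 r was −0.57 and rho −0.54 (permutation p 0.00789 and 0.0151, adjusted 0.0218 and 0.0441), −0.77 without the 2 farthest libraries, and −0.74 and −0.71 within the 1 mg/kg and 6 mg/kg groups. The vehicle and 0.1 mg/kg groups held too few libraries for a value of their own. The GC index comes from the same libraries and tested genes, with the members not left out. These relations therefore describe the libraries and add no independent measure, and the permutation p-values do not allow for this overlap.

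With the GC index as a covariate, an alternative added after the data had been seen, Ugt2b1 stood at −0.02 on the log2 scale at 6 mg/kg (SE 0.25, edgeR adjusted p 0.986) and Ugt2a3 at −0.23 (SE 0.22, edgeR adjusted p 0.744). In the same fit Ugt2b34 also moved upward, and so away from 0, from 0.14 to 0.68 (SE 0.22, 95% interval 0.24 to 1.12, edgeR adjusted p 0.338). In that fit 1 gene of all those tested passed, and it was no member. With the GC index the slope over dose rank was −0.009 per step for Ugt2b1 (SE 0.078, edgeR adjusted p 0.979). It was −0.095 for Ugt2a3 (SE 0.085, edgeR adjusted p 0.713) and 0.25 for Ugt2b34 (SE 0.078, edgeR adjusted p 0.320). Between vehicle and 6 mg/kg the GC index and the dose cannot be told apart. An index of the clock genes (log2 CPM of Dbp less that of Arntl) stood at 2.04 to 5.45 in vehicle and 5.76 to 8.60 in the 16 dosed libraries, while the GC index at 1 mg/kg overlapped vehicle. With the clock index as a covariate, the edgeR adjusted p was 1.00 for Ugt2b1 (−0.16, SE 0.34) as for Ugt2a3 (−0.37, SE 0.28), and 0 of all genes passed.

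**Figure D2:**
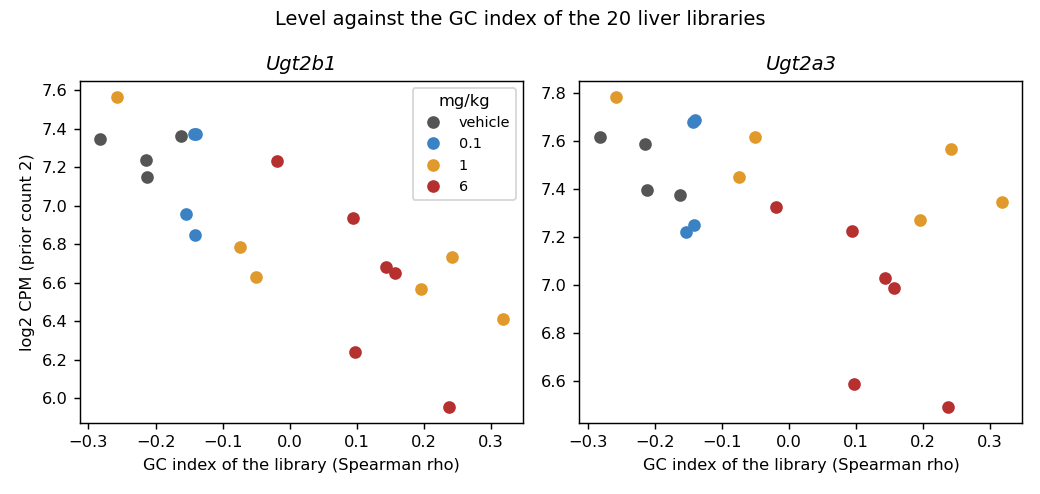
Log2 CPM of Ugt2b1 (left) and Ugt2a3 (right) against the GC index of each of the 20 liver libraries (Spearman rho, no unit), coloured by dose in mg/kg. Levels are lower where the index is higher (Pearson r −0.81 and −0.57), and vehicle (−0.28 to −0.16) and 6 mg/kg (−0.02 to 0.24) occupy separate stretches of the axis.

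The remaining Ugt2b members, which glucuronidate steroids and a wide range of phenols, had overlapping groups at 6 mg/kg. Ugt2b5 held from 412 to 514 CPM in vehicle and from 358 to 549 at 6 mg/kg (log2 fold change −0.11, SE 0.18). Ugt2b34 held from 318 to 390 CPM in vehicle and from 275 to 506 at 6 mg/kg (0.14, SE 0.21), and from 221 to 395 at 1 mg/kg (−0.27, SE 0.20). Ugt2b35 held from 56.1 to 82.6 CPM in vehicle and from 62.9 to 96.8 at 6 mg/kg (0.22, SE 0.19). Ugt2b36, the member with the smallest SD of log2 CPM within dose groups, held 393 to 444 CPM in vehicle. It held 412 to 467 at 0.1 mg/kg, 331 to 531 at 1 mg/kg and 318 to 424 at 6 mg/kg (−0.15, SE 0.15). The 95% intervals at 6 mg/kg reached from −0.46 to 0.24 for Ugt2b5, from −0.26 to 0.54 for Ugt2b34, from −0.15 to 0.59 for Ugt2b35 and from −0.44 to 0.13 for Ugt2b36.

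Ugt1a1 and Ugt1a9 varied widely between animals of the same dose, and Ugt1a6a did so mainly at 1 mg/kg. Ugt1a1, the bilirubin enzyme, held 104, 77.0, 68.0 and 25.1 CPM in vehicle. It held 16.9, 18.3, 130 and 56.2 CPM at 0.1 mg/kg, from 8.89 over a median of 25.7 to 153 at 1 mg/kg, and from 8.98 over 13.1 to 184 at 6 mg/kg. In the last group 2 libraries (184 and 122 CPM) lay above every vehicle library and the other 4 lay at 14.04 CPM or less, below every vehicle library. The log2 fold change at 6 mg/kg was −0.23 with an SE of 0.93 (95% interval −2.06 to 1.60, edgeR adjusted p 0.906).

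Ugt1a9, an enzyme for phenols and fatty acids, was the lowest member, at 1.07 to 8.52 CPM in vehicle, 0.557 to 7.82 at 0.1 mg/kg, 0.120 to 18.6 at 1 mg/kg and 0 to 7.28 at 6 mg/kg. The library of animal 52 at 6 mg/kg had no count, which allows up to 0.382 CPM (3 counts, counting error only). Its log2 fold change at 6 mg/kg was −0.51 with an SE of 1.05 (edgeR adjusted p 0.80). Ugt1a6a, which glucuronidates small planar phenols, held 15.0 to 26.0 CPM in vehicle, 14.4 to 27.9 at 0.1 mg/kg, 2.08 to 37.8 at 1 mg/kg and 9.84 to 26.9 at 6 mg/kg (log2 fold change −0.46, SE 0.48, edgeR adjusted p 0.588). Each dose group overlapped vehicle for each of these 3 genes.

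The SD of log2 CPM within dose groups was 1.55 for Ugt1a1, 1.77 for Ugt1a9 and 0.89 for Ugt1a6a, larger than that of 99.2%, 99.7% and 93.6% of the 12968 genes. For the Ugt2 members it was 0.17 for Ugt2b36, 0.25 for Ugt2a3 and Ugt2b5, 0.29 for Ugt2b35, 0.31 for Ugt2b34 and 0.37 for Ugt2b1, and the median of all genes was 0.39. The 3 members with shared exons were the 3 most variable of the 9, and Ugt2b36 was less variable than all but 2.09% of genes.

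**Figure D3:**
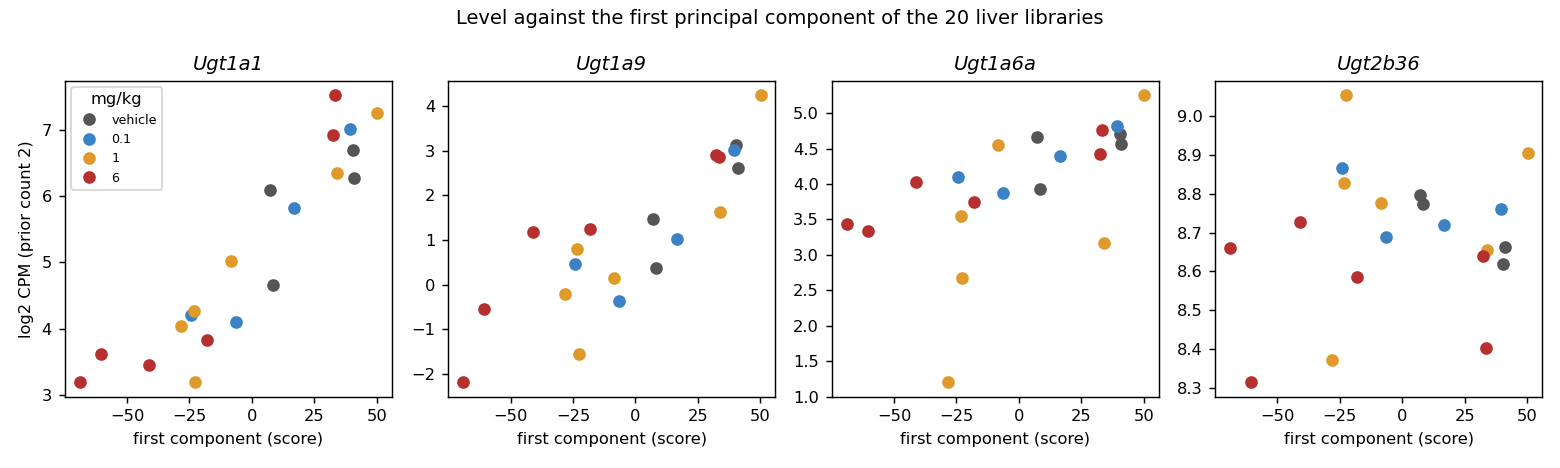
Log2 CPM of Ugt1a1, Ugt1a9, Ugt1a6a and Ugt2b36 (vertical axes, separate scales) against the score of each of the 20 liver libraries on the first principal component (no unit), coloured by dose in mg/kg. Ugt1a1 and Ugt1a9 rise along the component (Pearson r 0.92 and 0.85), while Ugt2b36 shows no such relation (0.14).

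Ugt1a1 followed the main axis of difference between the libraries. The first principal component of the log2 CPM of 12953 genes, with all UDP glycosyltransferase genes left out, held 32.7% of the variance. Over the 20 libraries Ugt1a1 correlated with it at Pearson r = 0.92 and Spearman rho = 0.88 (permutation p 1e-05 each, the smallest that can be had, adjusted over 36 relations 0.00012 and 0.00036). Without the 2 farthest libraries, those of animals 52 and 58 at 6 mg/kg, r was 0.93, and within the 1 mg/kg and 6 mg/kg groups it was 0.96 and 0.94 (n = 6 each). Ugt1a9 gave r = 0.85 and rho = 0.82 and Ugt1a6a r = 0.59 and rho = 0.70, both with adjusted permutation p-values under the threshold, 0.00012 and 0.00054 for Ugt1a9 and 0.0147 and 0.00606 for Ugt1a6a. Without the same 2 libraries r was 0.80 for Ugt1a9 and 0.59 for Ugt1a6a, and within the 1 mg/kg and 6 mg/kg groups it was 0.87 and 0.93 for Ugt1a9 and 0.63 and 0.92 for Ugt1a6a. The component and the members come from the same libraries, so this describes which libraries are high and adds no independent measure. Ugt2b1 also rose along it, at r = 0.76 and rho = 0.69 (permutation p 0.00012 and 0.00124, adjusted 0.00108 and 0.00638), with r = 0.61 without the 2 farthest libraries and 0.66 and 0.90 within the 1 mg/kg and 6 mg/kg groups. Ugt2a3 gave r = 0.63 and rho = 0.45 (permutation p 0.00255 and 0.049, adjusted 0.00918 and 0.104), which rested on the 2 farthest libraries, since r was 0.30 without them, and within the 1 mg/kg and 6 mg/kg groups it was 0.30 and 0.91.

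Total count, transcript length and GC content were compared with the members in the same way, 4 measures in all, chosen after the data had been seen. With the total count Ugt1a1 gave r = 0.65 and rho = 0.59 (permutation p 0.00214 and 0.00695, adjusted 0.00892 and 0.0267), with r = 0.58 without the 2 farthest libraries and 0.48 and 0.78 within the 1 mg/kg and 6 mg/kg groups. Ugt2a3 (r = 0.64, rho = 0.54, adjusted permutation p 0.00892 and 0.0441), Ugt2b1 (0.61 and 0.55, adjusted 0.0137 and 0.0417) and Ugt1a6a (0.51 and 0.59, adjusted 0.0454 and 0.0267) also rose with the total count. Without the 2 farthest libraries r was 0.50, 0.52 and 0.59, and within the 1 mg/kg and 6 mg/kg groups it was 0.35 and 0.61 for Ugt2a3, 0.24 and 0.58 for Ugt2b1 and 0.68 and 0.59 for Ugt1a6a. With a length index built like the GC index Ugt1a1 gave r = 0.42 and rho = 0.33 (permutation p 0.0666 and 0.153), and with the GC index r = −0.45 and rho = −0.46 (permutation p 0.0479 and 0.0453, adjusted 0.0958 and 0.102), so neither relation held after adjustment. Ugt1a6a fell with the GC index (r = −0.68, rho = −0.70, adjusted permutation p 0.0024 and 0.00606), with r = −0.58 without the 2 farthest libraries and −0.75 and −0.80 within the 1 mg/kg and 6 mg/kg groups. It rose with the length index (r = 0.64, rho = 0.65, adjusted permutation p 0.00561 and 0.0112), with r = 0.64 without the 2 farthest libraries and 0.69 and 0.13 within these groups. Among the Ugt2b members Ugt2b34 rose with the length index (r = 0.73, rho = 0.73, permutation p 0.00032 and 0.00039, adjusted 0.0023 and 0.00351), with r = 0.62 without the 2 farthest libraries and 0.71 and 0.74 within the 1 mg/kg and 6 mg/kg groups. Ugt2b34 has the longest transcript of the members (4312 bases). Both indexes come from the same libraries with the members not left out, so relations with them add no independent measure.

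For 3 further genes of the superfamily, chosen after their values were seen, the correlation with Ugt1a1 is given as a description. Ugt1a5, of the same locus, correlated with it at r = 0.94 over the 20 libraries, Ugt1a6b at 0.92 and Ugt2b38, which shares stretches with Ugt2b5, at 0.94. Of the members whose reads can also be ambiguous, Ugt1a9 gave 0.88, Ugt1a6a 0.65 and Ugt2b5 0.36. Outside the superfamily Gm10069 gave 0.98 and 1700022I11Rik 0.97. The 3 genes ranged from 0.522 to 86.1 CPM, 0.234 to 20.4 CPM and 0.313 to 37.8 CPM. The 300 genes with the highest r to Ugt1a1 (at least 0.85) had a median transcript length of 3244 bases and the 300 with the lowest (the highest of them −0.846) of 1678 bases, against 3372 bases for all genes tested. These are descriptions of the same 20 libraries.

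**Figure D4:**
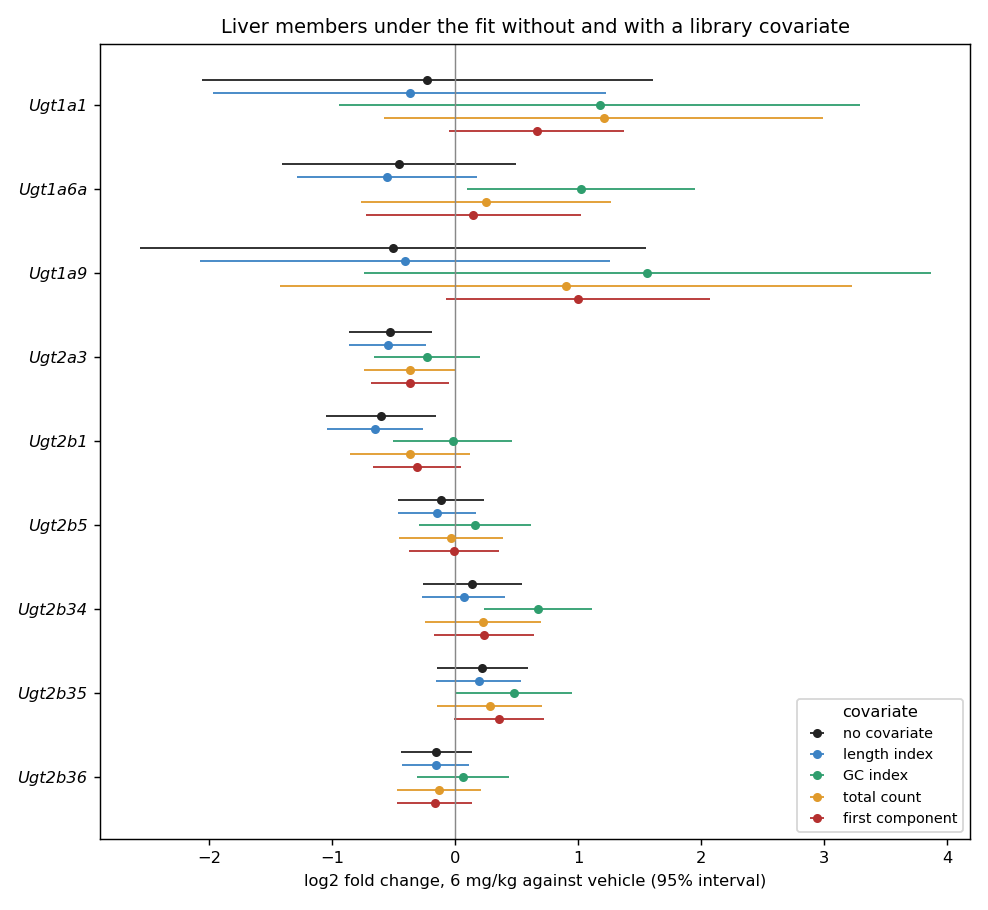
Log2 fold change of each member at 6 mg/kg against vehicle in the liver with its 95% interval, from the edgeR fit without a covariate and with 1 library covariate each (length index, GC index, total count, first component). Ugt2b1 goes from −0.60 without a covariate to −0.02 with the GC index, and Ugt1a1 from −0.23 to 0.66 with the first component, where its interval is narrowest.

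With the first component as a covariate the 6 mg/kg log2 fold change of Ugt1a1 was 0.66 with an SE of 0.36 in place of 0.93 (edgeR adjusted p 0.397), that of Ugt1a9 1.00 with an SE of 0.55 (0.393) and that of Ugt1a6a 0.15 with an SE of 0.45 (0.911). The direction of the Ugt1a members at 6 mg/kg therefore depended on the covariate, and none passed. Ugt2a3 and Ugt2b1 stayed below 0 in that fit, at −0.37 (SE 0.16, edgeR adjusted p 0.270) and −0.31 (SE 0.18, edgeR adjusted p 0.432).

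Several members varied together within doses. Over the 20 libraries, with dose means removed, the correlation of log2 CPM was 0.88 for Ugt2a3 and Ugt2b1, 0.88 for Ugt1a1 and Ugt1a9 and 0.77 for Ugt2b5 and Ugt2b34. Between the Ugt1a and Ugt2 members it reached 0.76 for Ugt1a9 and Ugt2b1, 0.70 for Ugt1a9 and Ugt2a3 and 0.69 for Ugt1a6a and Ugt2b1, while Ugt2b35 and Ugt2b36 gave 0.02. All members were measured in the same libraries, which differ in depth and composition, and the Ugt1a pair also shares exons. The part of these in the correlations was not tested. By correlation of log2 CPM over all 20 libraries, the gene most like Ugt1a1 was Gm10069 (r 0.98), the one most like Ugt1a6a was Snhg14 (0.91) and the one most like Ugt1a9 was Psmd1 (0.94). The closest to Ugt2a3 was Sec63 (0.91), to Ugt2b1 Atad1 (0.93), to Ugt2b5 Gclm (0.84), to Ugt2b34 AW549877 (0.79), to Ugt2b35 Trip4 (0.82) and to Ugt2b36 Serp1 (0.85).

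Genes around the glucuronidation step gave the following at 6 mg/kg, beside the 2.8% of all genes that passed and the 13.1% higher and 11.1% lower at an unadjusted p under 0.05. Among 5 genes of glucuronide export and breakdown, 1 rose and none fell. That gene was Abcc3, the pump that moves glucuronides into blood, which went from 107 ± 12.8 CPM in vehicle (SD, n = 4) to 226 ± 67.2 at 6 mg/kg (SD, n = 6), with no overlap (log2 fold change 1.07, SE 0.24, edgeR adjusted p 0.0244). It passed in 4 of the 10 fits that leave out 1 vehicle or 6 mg/kg library, with edgeR adjusted p-values up to 0.0944, and in 8 of 12 other alternatives. The bile pump Abcc2 was at 160 ± 45.4 and 178 ± 47.6 CPM (0.16, SE 0.25, edgeR adjusted p 0.738). Of 11 genes that supply UDP-glucuronic acid none passed, 1 being higher and 2 lower at an unadjusted p under 0.05 by edgeR, and Ugp2, which makes UDP-glucose, was at 427 ± 23.4 CPM in vehicle (SD, n = 4) and 249 ± 83.6 at 6 mg/kg (SD, n = 6), with an edgeR adjusted p of 0.0722.

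Of 14 tested regulators of these enzymes, Nr1i2, which encodes PXR, rose from 65.2 ± 7.84 CPM (SD, n = 4) to 106 ± 28.03 (SD, n = 6; log2 fold change 0.71, SE 0.19, edgeR adjusted p 0.0441), and none of the other 13 passed, with 4 of the 14 higher and none lower at an unadjusted p under 0.05 by edgeR. Nr1i2 passed in 2 of the 10 fits without 1 library, with edgeR adjusted p-values up to 0.152, and in 4 of 12 other alternatives. Nr1i3, which encodes CAR, was at 237 ± 24.4 and 482 ± 220.1 CPM (1.03, SE 0.31, edgeR adjusted p 0.0698). Of 23 receptor target genes tested, 2 rose and 1 fell, and 5 were higher and 1 lower at an unadjusted p under 0.05. Cyp2b10, the usual readout of CAR, held from 0.739 to 2.23 CPM in vehicle and from 11.4 over a median of 50.7 to 247 CPM at 6 mg/kg, with no overlap (log2 fold change 6.01, SE 0.91, edgeR adjusted p 0.00592). Cyp1a2 rose from 347 ± 26.3 to 941 ± 268 CPM (1.44, SE 0.23, edgeR adjusted p 0.00592) and Pdk4, a PPARα target that also responds to fasting, fell from 16.1 ± 8.58 to 6.02 ± 2.83 CPM (−1.41, SE 0.34, edgeR adjusted p 0.0319). Cyp2b10 and Cyp1a2 each passed in 9 of the 10 fits without 1 library, and in 11 and 9 of 12 other alternatives. Pdk4 passed in 3 of the 10 and 6 of the 12, where its log2 fold change reached −0.19. The PPARα targets Cyp4a31 (log2 fold change 1.64, SE 0.47, edgeR adjusted p 0.0609) and Cyp4a10 (1.75, SE 0.59, edgeR adjusted p 0.0904) stood above 0 and did not pass.

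The other targets always named did not pass. Cyp3a11, the PXR readout, was at 1202 ± 62.8 and 1384 ± 352 CPM, Cyp1a1 at 0.707 ± 0.285 and 2.08 ± 2.16 CPM, Cyp4a14 at 464 ± 258 and 746 ± 705 CPM and Nqo1 at 11.7 ± 2.47 and 9.46 ± 1.87 CPM (SD, n = 4 and 6 each). Of 12 sulfotransferases, enzymes that compete for the same phenols and steroids, none passed by edgeR. Of these 12, 1 was higher and 5 lower at an unadjusted p under 0.05, and 10 had a log2 fold change below 0 (median −0.40). Of all 12968 genes 13.1% were higher and 11.1% lower at that p, and 6241 were below 0 (median 0.02). Among 16 tested genes of thyroid hormone handling, Dio1, a deiodinase, rose from 130 ± 37.2 to 218 ± 39.6 CPM (0.75, SE 0.20, edgeR adjusted p 0.0494) and no other passed. Of the 16, 10 had a log2 fold change below 0 (median −0.21), and 1 was higher and 4 lower at an unadjusted p under 0.05. Slc16a10, a carrier of thyroid hormone, was at −0.55 (SE 0.17, edgeR adjusted p 0.0748) and Slco1b2, a hepatic uptake carrier, at −0.68 (SE 0.24, edgeR adjusted p 0.0972). Dio1 passed in 2 of the 10 fits without 1 library and in 4 of 12 other alternatives, where its log2 fold change went down to 0.23. Of 6 other UDP glycosyltransferases tested none passed by edgeR, 5 had a log2 fold change below 0 (median −0.85) and 1 was lower at an unadjusted p under 0.05. This was Ugt3a2, an enzyme that uses another sugar, at 263 ± 34.3 and 151 ± 75.0 CPM (−0.80, SE 0.28, edgeR adjusted p 0.0928).

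In the brain 1 member was measurable. Ugt1a6a was listed in both brain tables, Ugt2b5 in the striatum alone with 0 to 5 counts per library, and the other 7 members in neither. In the prefrontal cortex Ugt1a6a held 0 to 17 counts per library, at 0.324 to 1.46 CPM in vehicle and 0 to 0.927 at 6 mg/kg, and did not pass the filter on low counts; the library with 0 counts allows up to 0.342 CPM. With no filter its log2 fold change at 6 mg/kg was −1.30 (SE 0.58, edgeR adjusted p 0.561). In the striatum it held 2 to 20 counts, at 0.889 to 1.92 CPM in vehicle, 0.226 to 0.967 at 0.1 mg/kg, 0.212 to 1.33 at 1 mg/kg and 0.348 to 1.23 at 6 mg/kg. All groups overlapped vehicle.

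The striatal log2 fold changes of Ugt1a6a were −1.13 at 0.1 mg/kg (SE 0.43, unadjusted p 0.0145 by edgeR), −0.73 at 1 mg/kg (SE 0.40) and −0.57 at 6 mg/kg (SE 0.40), with edgeR adjusted p-values of 1.00, 0.698 and 0.477. Of all striatal genes 0% passed at each dose by that test, and 2.53%, 7.36% and 15.7% were under an unadjusted p of 0.05 at 0.1, 1 and 6 mg/kg; by DESeq2 26 genes passed at 6 mg/kg, not Ugt1a6a. The liver less striatum difference of the 6 mg/kg effect was 0.12 (SE 0.44, edgeR adjusted p 0.909), where 0.0501% of 11973 genes passed. No member was tested in both the liver and the prefrontal cortex.

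**Figure D5:**
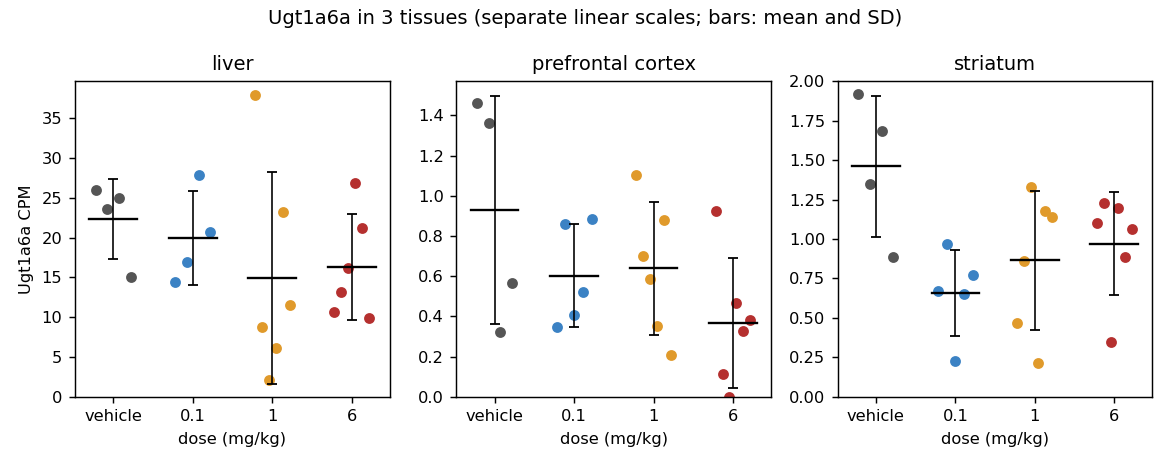
CPM of Ugt1a6a in every library (points) of the liver, prefrontal cortex and striatum by dose in mg/kg, with mean and SD, each tissue on its own linear axis from 0. Liver vehicle libraries hold 15.0 to 26.0 CPM, against 0.324 to 1.46 in the prefrontal cortex and 0.889 to 1.92 in the striatum.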

How the data were processed

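RNA of liver, prefrontal cortex and striatum was sequenced, and the authors deposited 1 table of raw read counts per Entrez gene for each tissue. Per the submitters' processing notes, the tools were FastQC and HISAT2 and the build mm10; the counting tool, its use of strand and the choice between poly(A) capture and ribosomal RNA removal are not given in the sources used here. The smallest table total of a listed gene was 10 counts. Samples were grouped by their labels, and no pair of libraries of a group agreed within sampling noise (smallest chi-square per degree of freedom 2.94). Libraries carry animal numbers, but the labels do not state that each is a separate animal, so p-values measure the spread between these samples, which may be technical.

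Counts of all 4 dose groups of a tissue were fitted with edgeR 4.0.16 (filterByExpr, TMM, robust quasi-likelihood test), each dose was compared with vehicle, and p-values were adjusted by Benjamini-Hochberg over all genes tested, with 0.05 as the threshold. Standard errors were derived from the fold change and the F statistic. CPM is scaled by TMM, and a prior count of 2 entered log2 CPM. Transcript lengths, exons and GC content came from GENCODE vM21, known for 96.5% of the liver genes. Fits were tested on simulated data. All 9 members were named; of each other list, up to 5 genes ranked by p at 6 mg/kg and 6 fixed receptor targets could be named, and for likeness the genes with the highest r. Alternatives were DESeq2 1.42.0, another normalization and filters, sva 3.50.0, covariates, other references and each replicate left out. Permutation tests were two-sided and used scipy 1.17.1 and numpy 2.4.6. The members were named by identifier with no threshold on values, but they and the lists were chosen with earlier results of these data known.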

Additional observations from a re-analysis of the deposited data

Results flagged for a closer look

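In the 1 mg/kg liver group the library of animal 41 stood far above the other 5 for 2 members. It held 18.6 CPM of Ugt1a9, where the next library held 2.88 and the lowest 0.120 CPM. It held 189.5 CPM of Ugt2b1, where the next held 110.3 and the lowest 84.9 CPM. This library was the highest of its group for 8 of the 9 members. Its GC index (−0.26) was the lowest and its first component score (50.1) the highest of the group, and their part in its levels was not tested. In all, 41 groups of 4 to 6 libraries were examined and 2 were flagged, where chance flags about 2.05 of 41.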

How the results depend on the processing

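The count of members passing at 1 mg/kg and at 0.1 mg/kg, in the striatum at each dose and in the liver less striatum difference stayed at 0 under every alternative run. The striatal alternatives at 0.1 and 1 mg/kg were chosen after seeing the data. In the prefrontal cortex 1 member, Ugt1a6a, was tested with no filter (edgeR adjusted p 0.561) and passed the filter only without vehicle animal 7 or 8, the vehicle libraries with its fewest counts (3 and 5), so those 2 fits are not read. In the liver at 1 mg/kg 1 member was under an unadjusted p of 0.05 with only the 2 groups compared (Ugt2b1), and 1 (Ugt2b35) with the clock index, with the GC index and without animal 48. At 6 mg/kg 1 member passed with DESeq2 and 1 with the length index as a covariate (Ugt2a3 each time), and 0 to 2 passed with 1 replicate left out. In the slope 1 passed with DESeq2 and 1 with the length index (Ugt2b1), 1 with the slope over mg/kg (Ugt2a3), and 0 to 1 with 1 replicate left out. Against 624 of all genes in the slope as reported, these fits passed 1228, 926, 483 and 79 to 1317 genes. With the GC index or the clock index the slope passed 3 genes. Over all genes, against 363 at 6 mg/kg, 1138 passed with DESeq2, 733 with the length index, 241 with no filter, 153 with the first component, 13 with only the 2 groups compared, 8 with the total count, 5 with 0.1 mg/kg as the reference, 1 with the GC index and 0 with the clock index. Without vehicle animal 3, 4, 7 or 8 it was 11, 3, 94 or 137, and without 6 mg/kg animal 52, 53, 54, 55, 56 or 58 it was 89, 227, 153, 1029, 1302 or 60. Signs turned at 6 mg/kg for members that did not pass. With the clock index the log2 fold change was 1.24 for Ugt1a1, 0.36 for Ugt1a6a, 2.39 for Ugt1a9 and 0.078 for Ugt2b5. With the GC index it was 1.17 for Ugt1a1, 1.02 for Ugt1a6a, 1.56 for Ugt1a9, 0.16 for Ugt2b5 and 0.064 for Ugt2b36. With the total count it was 1.21 for Ugt1a1, 0.25 for Ugt1a6a and 0.90 for Ugt1a9, and with the first component 0.66, 0.15 and 1.00. With 1 surrogate variable Ugt1a9 was at 0.24, and with 0.1 mg/kg as the reference Ugt1a1 was at 0.084 and Ugt1a9 at 0.16. With 1 replicate left out Ugt1a1 ran from −1.02 to 0.048. The cause was not tested. Ugt2a3 stayed below 0 throughout, from −0.61 to −0.23, and Ugt2b1 from −0.75 to −0.02. The covariates other than the clock index and the surrogate variable were chosen after seeing the data. With the animal number as a replicate block, 0 members passed in the liver less striatum difference (Ugt1a6a 0.06, SE 0.35). Same-numbered libraries of the 2 tissues correlated at −0.08 to 0.15 over 10 pairs, 4 of them best with their own number. Such correlations between different tissues cannot show whether same-numbered libraries come from the same animal. The difference is therefore given both without and with the block. The liver less prefrontal cortex difference could not be fitted for any member.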

Other observations

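Markers of Kupffer cells, the resident macrophages of the liver, were higher at 6 mg/kg than in vehicle for 1 of 7 genes by edgeR's adjusted p, and 3 of 7 had an unadjusted p under 0.05, against 13.1% of all genes higher at that level. Of all 12968 genes 2.8% passed, 234 higher and 129 lower. Clec4f passed, at 64.0 ± 14.2 CPM in vehicle (SD, n = 4) and 122 ± 38.4 at 6 mg/kg (SD, n = 6; log2 fold change 0.93, SE 0.23, edgeR adjusted p 0.0333), and it passed in 6 of the 10 fits that leave out 1 library and in 6 of 12 other alternatives, where the log2 fold change went down to 0.26. Of 14 genes of the clock and of feeding, 5 rose and 1 fell. Among them Dbp, a clock output factor, went from 99.4 ± 68.2 CPM (SD, n = 4) to 318 ± 35.6 (SD, n = 6; log2 fold change 1.68, SE 0.32, edgeR adjusted p 0.0134). It passed in 8 of the 10 fits that leave out 1 library and in 7 of 12 other alternatives, where the log2 fold change went down to 0.17. The alternative with the clock index, which is built from Dbp itself, is no check on this gene. Of 10 hepatocyte markers none passed by edgeR, and 3 were lower at an unadjusted p under 0.05, against 11.1% of all genes. Of these markers 9 had a log2 fold change below 0 (median −0.21), against 6241 of all 12968 genes (median 0.02).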
